A study of Mus musculus with 4 samples.

Results

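DNA methylation was followed around the genes of 8 transcription factors of hepatocyte identity, Foxa1, Foxa2, Foxa3, Cebpa, Cebpb, Onecut1, Onecut2 and Prox1, by reduced representation bisulfite sequencing of mouse liver. The CpGs taken were those in the mm10 body of each gene or in the 10 kb on either side, with both strands summed and at least 10 reads in every library. They numbered 1932 of the 1600691 nuclear CpGs that met this minimum. The study set 2 libraries from Pnpla7-/- livers (KO) against 2 from Pnpla7+/+ livers (WT), all of strain C57BL6/N and 6 weeks of age, which asks how liver methylation differs without Pnpla7, a lysophospholipase. The labels name no promoter or cell type for the deletion, and do not tie the libraries to animals. The spread between these libraries may therefore be technical. P-values of the read-count model used below rest on read numbers and on a dispersion drawn toward that of all features. They measure the spread between libraries only in part. Methylation levels do not check the genotype labels.

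FOXA proteins are pioneer factors that bind their sites in compacted chromatin and open liver enhancers for other factors. C/EBPα and C/EBPβ are basic leucine zipper proteins of metabolic and acute-phase gene control. ONECUT1, also called HNF6, and ONECUT2 act in hepatoblasts and in the bile duct lineage. PROX1 is a homeodomain protein of hepatoblasts and lymphatic endothelium. Genes of developmental regulators commonly lie in broad stretches of unmethylated CpGs, and methylation at CpG-dense gene starts goes with silencing.

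Over cytosines, 59953688 and 60535892 reads were counted in KO replicates 1 and 2, and 50413170 and 59437109 in WT replicates 1 and 2. The analysed CpGs of a member region had median depths of 21 to 45 reads per library. Per gene, 152 (Prox1) to 336 (Onecut2) CpGs were analysed, or 51.5% (Prox1) to 78.3% (Foxa3) of those listed in the region. Whole liver was sequenced, so a changed level within hepatocytes and a changed mix of cells cannot be told apart. Gene-end windows of 1 kb on either side were measured at 4 of 8 hepatocyte marker genes (Apoa2, Pck1, Tat and Serpina1a), where they averaged 43.7% and 40.3% in KO replicates 1 and 2 and 34.3% and 32.6% in WT replicates 1 and 2. The leukocyte list (3 of 7 measured) spanned 76.5% to 85.9% in KO and 77.1% to 82.3% in WT, and the cholangiocyte list (5 of 5) 7.99% to 13.3% in KO and 12.03% to 12.9% in WT. The stellate list (5 of 5) spanned 11.7% to 12.4% in KO and 12.1% to 12.6% in WT, and the 1 measured endothelial gene of 5, Kdr, 0.912% to 1.55% in KO and 1.20% to 1.74% in WT. No window of these lists was at 0% in all libraries, and the part of such cells in the results was not tested.

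Promoters are shown first because methylation was measured at the start of 6 of the genes, and it was low at each. The gene-end window of Foxa1, which lies upstream of the run printed here, measured 21.7% and 19.4% in KO replicates 1 and 2 against 21.4% and 23.5% in WT. That window does not cover this RefSeq start. The 1 kb from 57546001, which holds the start and the run, had 7 analysed CpGs, all outside the run. It measured 0.391% and 0.269% in KO replicates 1 and 2 against 0.909% and 0.287% in WT. The printed runs are the 250 bases before the start in RefSeq (build GRCm38.p6, which is mm10), read 5′ to 3′ on the gene's strand, with analysed CpGs in capitals for Cebpb, Onecut1 and Foxa3. The Cebpb run is chr2:167688665-167688914 on the plus strand, with 34 of 41 CpGs analysed. The Onecut1 run is chr9:74861671-74861920 on the plus strand, with 18 of 31. The Foxa3 run is chr7:19023540-19023789 on the minus strand, with 12 of 18. The Foxa1 run, chr12:57546112-57546361 on the minus strand, had 0 of 21 CpGs analysed, and its capitals mark the FOXA motif, which begins 141 bases before the start.
Cebpb: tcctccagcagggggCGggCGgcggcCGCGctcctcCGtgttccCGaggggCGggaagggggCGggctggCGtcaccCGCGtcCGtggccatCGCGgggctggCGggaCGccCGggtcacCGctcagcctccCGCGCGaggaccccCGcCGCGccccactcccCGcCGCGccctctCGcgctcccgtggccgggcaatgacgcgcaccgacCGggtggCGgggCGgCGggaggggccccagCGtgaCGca
Onecut1: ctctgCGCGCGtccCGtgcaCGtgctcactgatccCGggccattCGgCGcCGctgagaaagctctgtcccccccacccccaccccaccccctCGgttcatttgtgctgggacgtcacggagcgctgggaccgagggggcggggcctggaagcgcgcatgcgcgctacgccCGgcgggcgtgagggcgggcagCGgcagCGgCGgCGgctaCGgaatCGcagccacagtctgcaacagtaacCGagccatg
Foxa3: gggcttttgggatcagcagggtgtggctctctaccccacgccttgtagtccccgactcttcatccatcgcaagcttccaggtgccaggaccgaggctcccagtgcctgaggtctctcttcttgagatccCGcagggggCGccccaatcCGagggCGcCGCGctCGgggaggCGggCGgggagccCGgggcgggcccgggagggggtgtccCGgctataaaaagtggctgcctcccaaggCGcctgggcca
Foxa1: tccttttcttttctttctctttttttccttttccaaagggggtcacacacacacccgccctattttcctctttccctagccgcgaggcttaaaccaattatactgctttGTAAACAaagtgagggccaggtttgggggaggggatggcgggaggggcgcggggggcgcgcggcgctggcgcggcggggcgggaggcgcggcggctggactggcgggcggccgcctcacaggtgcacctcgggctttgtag

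RefSeq gave 10 promoter windows of 300 bases (250 before to 50 after a start) for 7 of the 8 genes (not Onecut2), and 8 of these windows, in 6 genes, held analysed CpGs. In Cebpb the window had 50 CpGs, more than 99.1% of 32851 promoters, and its 43 analysed CpGs averaged 0.378% and 0.268% in KO replicates 1 and 2 against 0% and 0.291% in WT. The 25 analysed CpGs of the Onecut1 window averaged 0.463% and 0% in KO against 0.823% and 0.182% in WT. The 16 of the Foxa3 window averaged 1.44% and 0% in KO against 0.417% and 0.354% in WT. The genotypes overlapped at each of these 3 promoters. The outermost Foxa2 window, with 9 analysed CpGs, averaged 0.927% and 1.08% in KO and 2.96% and 1.48% in WT, and the outermost Prox1 window, with 20, averaged 0.50% and 0% in KO and 0.960% and 0.745% in WT. Both stood lower in KO, at an exact two-sided permutation p of 0.333, the smallest that 2 libraries against 2 allow. WT was too low there for a fall of 10 points. A second analysed window of each gene overlapped between genotypes. That of Foxa2 averaged 0.909% and 0.536% in KO and 0% and 0.629% in WT. That of Prox1 averaged 1.09% and 0% in KO and 0.536% and 0.346% in WT. The share of all promoters with both KO libraries lower was not counted. Across 11316 promoters with at least 3 analysed CpGs, 91.2% in KO and 90.7% in WT averaged under 20%.

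The windows were searched on both strands for TGTTTAC (FOXA), ATCGAT (ONECUT) and TTGCGCAA (C/EBP), and for the cut sites of the enzymes that made the libraries, CCGG (MspI) and TCGA (TaqI), which lies inside ATCGAT. The FOXA letters stood in 1 of 10 member windows, that of Foxa1, and in 3.65% of all promoters. ATCGAT and TTGCGCAA stood in 0 of 10, and in 0.925% and 0.183% of all promoters. CCGG stood in 8 of 10 windows against 52.8% of all promoters, and TCGA in 2 of 10 against 22.0%. The Foxa1 window held neither cut site. Only these exact letters were searched, so a count of 0 does not show that other spellings of a motif are absent. These matches describe the sequence and are not binding sites.

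Over the 8 regions, 1526 CpGs (79.0%) averaged under 20% methylation over the 4 libraries, 282 (14.6%) lay between 20% and 80% and 124 (6.42%) above 80%. Over all analysed CpGs of the series the shares were 44.99%, 18.6% and 36.4%. Foxa2 (93.8% of CpGs under 20%), Cebpa (91.5%) and Cebpb (89.2%) were the least methylated, and Prox1 (61.8%) and Onecut1 (64.2%) held the smallest shares of such CpGs. The member CpGs of 20% to 80% averaged 50.6% and 48.0% in KO replicates 1 and 2 against 47.0% and 47.2% in WT, a difference of 2.18 points. The same class over the whole series averaged 59.3% and 59.3% in KO against 58.3% and 57.7% in WT, a difference of 1.30 points. Member CpGs under 20% averaged 2.31% and 2.40% in KO against 1.79% and 1.88% in WT, and those of the series 2.10% and 1.94% in KO against 2.04% and 2.04% in WT. Over the CpGs of all 8 regions, both KO libraries lay above both WT libraries in these 2 classes. In the series the class under 20% overlapped (exact two-sided permutation p = 0.333 for each class that did not). By gene, KO lay above WT under 20% at Foxa1 (1.24 points), Onecut2 (0.903), Onecut1 (0.786), Cebpb (0.473) and Cebpa (0.148). The genotypes overlapped there at Foxa3 (0.184), Foxa2 (0.146) and Prox1 (-0.0627). From 20% to 80%, KO lay above WT at Foxa3, Onecut2 and Cebpb and below it at Foxa1, and the rest overlapped. How often other genes stand apart in these classes was not counted, so the lists describe the members only. The Foxa1 and Onecut1 values include CpGs of the tiles called below. The part of the tiles called below in these differences was not tested.

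By whole region, with each CpG weighted equally, the order of the 8 genes was the same in both genotypes, and no neighbours in that order overlapped within a genotype. Prox1 was highest, at 28.9% and 28.6% in KO replicates 1 and 2 and 28.8% and 28.7% in WT. Onecut1 measured 23.6% and 22.2% in KO and 22.6% and 23.6% in WT, and Foxa3 19.8% and 18.8% in KO and 17.1% and 17.7% in WT. Onecut2 measured 16.9% and 18.4% in KO and 16.6% and 16.3% in WT, and lay closest to its neighbour Foxa3. Foxa1 measured 12.8% and 12.4% in KO and 12.2% and 12.1% in WT. Below these came Cebpb at 8.91% and 8.50% in KO and 7.73% and 7.69% in WT, Cebpa at 6.54% and 5.82% in KO and 5.79% and 5.68% in WT, and Foxa2 at 5.13% and 4.67% in KO and 4.86% and 4.59% in WT.

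Both KO libraries lay above both WT libraries in 5 of the 8 regions (Foxa1, Foxa3, Cebpa, Cebpb and Onecut2) and below them in 0, against 24.7% above and 13.5% below among 30562 gene regions. The mean differences ran from -0.209 points at Onecut1 to 1.94 points at Foxa3, where KO averaged 19.3% ± 0.702 and WT 17.4% ± 0.464 (SD, n = 2 each). The moderated quasi-binomial model called 0 of the 8 regions, and 0% of all regions. In this model 1 region, Foxa3, had an unadjusted p under 0.05 (0.00299, adjusted p = 0.99 by the moderated quasi-binomial model), and limma on log2 ratios called 0 regions and had 0 under that p. Of the 8 gene-end windows the model called 0 and had 0 at an unadjusted p under 0.05, and limma called 0 and had 1 under that p, against 0.0725% of windows called by the model over the series. Weighting CpGs by reads turned the Onecut2 region difference to -0.618 points, and the Foxa3 body difference shrank to 0.0519 points when reads were pooled.

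**Figure D1:**
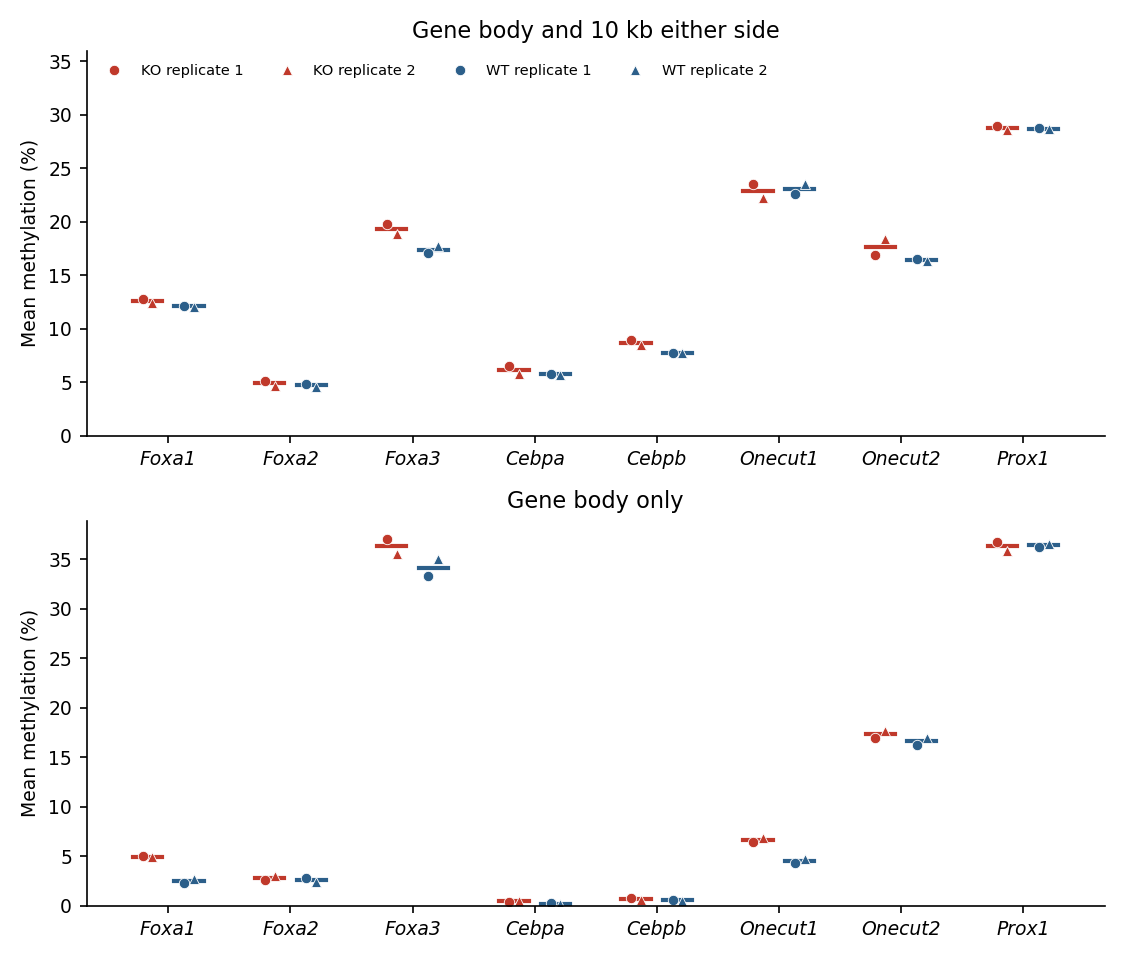
Mean methylation (%) of analysed CpGs per library, KO (red) left of WT (blue) for each gene, over the body and 10 kb either side (top) and over the body alone (bottom); circles are replicate 1, triangles replicate 2 and bars the means of 2 libraries. The 4 libraries lie close together at each gene. In the bodies of Foxa1, Foxa3, Cebpa, Cebpb and Onecut1 both KO libraries stand above both WT libraries. The Foxa1 and Onecut1 bodies hold the called tiles. The Cebpa and Cebpb bodies differ by 0.236 and 0.125 points. The share of all gene bodies that stand so was not counted.

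At finer scale, 117 tiles of 1 kb with at least 3 analysed CpGs covered the regions, and 116 could be tested. For a call, the adjusted p (Benjamini-Hochberg over all tiles of the genome) had to be under 0.05 and the genotypes had to differ by 10 percentage points or more. The model called 2 of the 116 tiles, 1 in Foxa1 and 1 in Onecut1, both higher in KO, against 0.149% of 163610 tiles over the series. The members were chosen with earlier results of these data known, so this share does not test an excess. A mean level under 20% was found in 61 of the 117 tiles, and in 31429 of 164026 over the series. Such tiles leave little or no room for a fall of 10 points. In the called Foxa1 tile WT was under 10%, so only a higher KO level could be called. Unadjusted p was under 0.05 in 17 tiles (14.7%), against 6.43% of all tiles, and limma on log2 ratios called 0 with 8 (6.90%) under that p, against 0 called and 5.52% under that p among all tiles. Among 40 member tiles of 20% to 80% mean level, both KO libraries stood above both WT libraries in 11 (27.5%) and below in 4 (10%), against 22.2% and 14.6% of such tiles over the series. Of 1312 single CpGs tested, 3 were called, in Foxa1, Cebpb and Onecut1, all higher in KO, against 0.0403% over the series. The model gave every CpG the same dispersion, 1.09, so the p-value of a single CpG rests on its reads and takes no account of how its libraries differ.

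**Figure D2:**
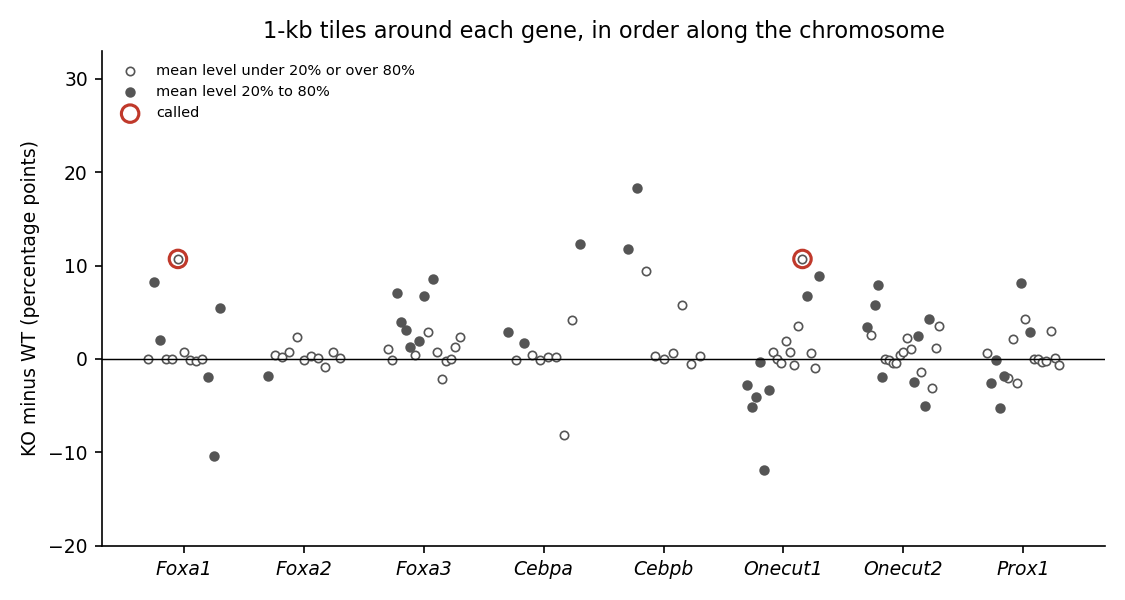
KO minus WT methylation (percentage points, pooled reads) of each 1-kb tile around the 8 genes, in chromosomal order; filled points have a mean level of 20% to 80%, open points lie outside it, and red rings mark called tiles. The 2 ringed tiles, in Foxa1 and Onecut1, differ by 10.7 points each, and the largest difference, 18.3 points in Cebpb, was not called.

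Foxa1, a pioneer factor of early liver development, carried the call of smallest p. Its tile at chromosome 12, 57542001 to 57543000 (mm10), lies in the gene body, its centre 3.61 kb downstream of the RefSeq start; the annotation used here does not give exons or UTRs. Over 35 CpGs it measured 16.5% and 18.2% in KO replicates 1 and 2 against 6.99% and 6.15% in WT, from 987 to 1269 reads per library. The KO libraries agreed closely and both lay far above both WT libraries. The difference was 10.7 points (moderated quasi-binomial model, adjusted p = 4.27e-07). Without KO replicate 2 it was 9.93 points and no longer met the 10 points, at adjusted p = 5.56e-06, and limma gave adjusted p = 0.894.

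The higher level at Foxa1 was spread over the tile. Each of its 35 CpGs, at 57542094 to 57542728, had a higher mean in KO, by 0.271 to 25.8 points with a median of 10.5, and 13 had an unadjusted p under 0.05. In 22 of them both KO libraries lay above both WT libraries; this describes a tile already called as higher in KO, so the 11.5% of CpGs that did so over the series is given without comparison. CpGs that share reads are not independent. The called CpG, 57542409, measured 21.4% and 39.7% in KO against 8.06% and 1.43% in WT (58 to 70 reads; adjusted p = 0.000298, moderated quasi-binomial model). The 2 KO libraries differed more from each other there than over the tile. Without this CpG the tile measured 16.2% and 16.9% in KO against 6.92% and 6.42% in WT. The difference was then 9.83 points, under the 10 a call needs. Forward-strand reads gave 17.7% and 21.3% in KO against 5.87% and 7.88% in WT. Reverse-strand reads gave 15.3% and 15.1% in KO against 8.19% and 4.27% in WT. The genotypes stood apart on each strand, by 12.7 and 8.96 points, the latter under the 10 of a call. These are the reads that gave the call, so the split describes it and is no separate test.

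The measured tiles next to the called Foxa1 tile differed by under 1 point. The one toward the start, from 57543001, had 2.51% and 2.68% in KO against 1.83% and 1.80% in WT, with both KO libraries above both WT libraries (adjusted p = 0.773). The one on the other side, from 57539001, had 0.535% and 0.312% in KO against 0% and 0.831% in WT. Chosen after its values were seen, the tile from 57535001, beyond the end of the gene, also lay higher in KO, at 46.4% and 45.5% against 40.4% and 35.4% in WT (8.20 points on pooled reads, adjusted p = 0.32, moderated quasi-binomial model). Chosen likewise, the tile from 57550001 in Ttc6, a neighbouring gene that overlaps the Foxa1 start region, lay the other way, with 51.2% and 50.7% in KO against 62.6% and 60.2% in WT. Its difference of -10.3 points missed the threshold at adjusted p = 0.0526 (moderated quasi-binomial model) and was called, at -10.4 points, when CpGs with 5 reads were admitted. Over the whole Foxa1 body, 153 CpGs averaged 5.06% and 4.87% in KO against 2.33% and 2.73% in WT, while 43 CpGs in Ttc6 outside that body averaged 41.8% and 39.4% in KO against 48.3% and 48.0% in WT. The body, which holds the called tile, stood 2.43 points higher and the Ttc6 stretch 7.55 points lower in KO, and the mean of the whole region, 0.465 points higher, shows neither. The body did not pass on its own (unadjusted p = 0.000112, adjusted p = 0.568, moderated quasi-binomial model).

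**Figure D3:**
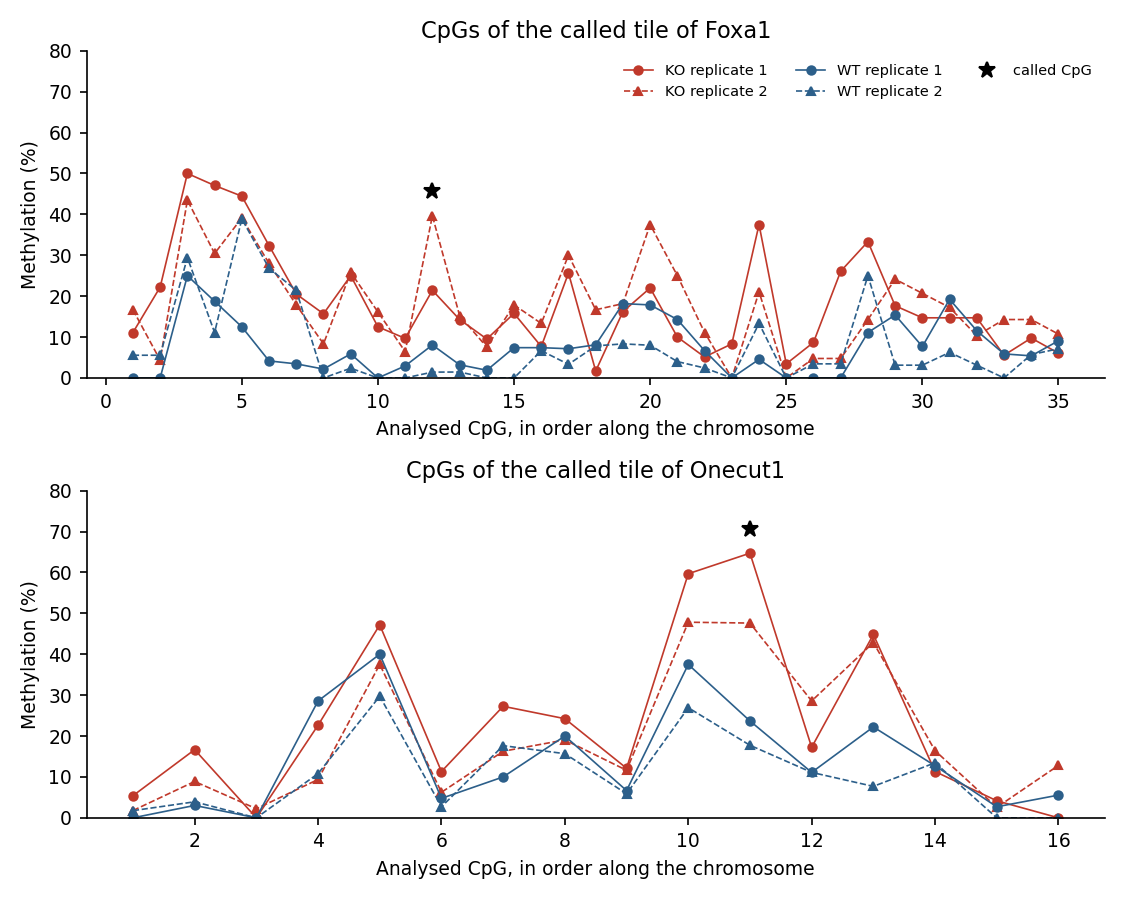
Methylation (%) of each analysed CpG in the called tiles of Foxa1 (top, 35 CpGs) and Onecut1 (bottom, 16 CpGs), in order along the chromosome; red is KO, blue is WT, circles and solid lines are replicate 1, triangles and dashed lines replicate 2, and stars mark called CpGs. KO lies above WT over most of the Foxa1 tile, whereas in Onecut1 the gap is widest at the tenth to thirteenth CpGs.

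Onecut1 carried the other called tile, at chromosome 9, 74868001 to 74869000, in the gene body and also in the lncRNA gene Gm38678, its centre 6.58 kb downstream of the start. Over 16 CpGs it measured 26.5% and 20.3% in KO replicates 1 and 2 against 13.9% and 11.6% in WT, from 503 to 718 reads per library. Both KO libraries lay above both WT libraries, though KO replicate 1 stood well above KO replicate 2. The difference was 10.7 points (adjusted p = 0.0026, moderated quasi-binomial model). The call was lost without KO replicate 1 (7.81 points, adjusted p = 0.121), without WT replicate 2 (9.32 points, adjusted p = 0.224) and by limma (adjusted p = 0.894). The tile just upstream, from 74867001, had 4.49% and 7.14% in KO against 2.55% and 2.30% in WT (adjusted p = 0.625), and the next measured tile downstream, from 74889001, overlapped between genotypes.

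In the Onecut1 tile 15 of 16 CpGs had a higher mean in KO (median of the 16 differences, 5.33 points), and in 8 both KO libraries lay above both WT libraries, again given as a description of a called tile. The called CpG, 74868790, measured 64.7% and 47.6% in KO against 23.7% and 17.7% in WT (38 to 63 reads; adjusted p = 0.00103, moderated quasi-binomial model). Without it the tile measured 23.1% and 17.7% in KO against 13.1% and 10.98% in WT, 8.33 points apart. Forward-strand reads differed by 7.66 points and reverse-strand reads by 12.5 points, with both KO libraries above both WT libraries on each strand. Here too the split uses the reads that gave the call and is no separate test.

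Upstream of Onecut1 the levels lay the other way. In the 87 CpGs of the lncRNA gene Gm33562 outside the Onecut1 body, KO measured 38.0% and 34.2% against 39.1% and 40.2% in WT, a difference of -3.49 points. In the body, 114 CpGs measured 6.47% and 6.80% in KO against 4.28% and 4.71% in WT, a difference of 2.14 points (unadjusted p = 0.00129 and adjusted p = 0.982 on pooled reads, moderated quasi-binomial model). Chosen after its values were seen, the tile from 74857001 had the largest negative difference of the 116, with 43.7% and 37.6% in KO against 48.8% and 56.0% in WT (-11.9 points on pooled reads, adjusted p = 0.198). The Onecut1 body holds the called tile, and the flank as a whole was not tested.

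**Figure D4:**
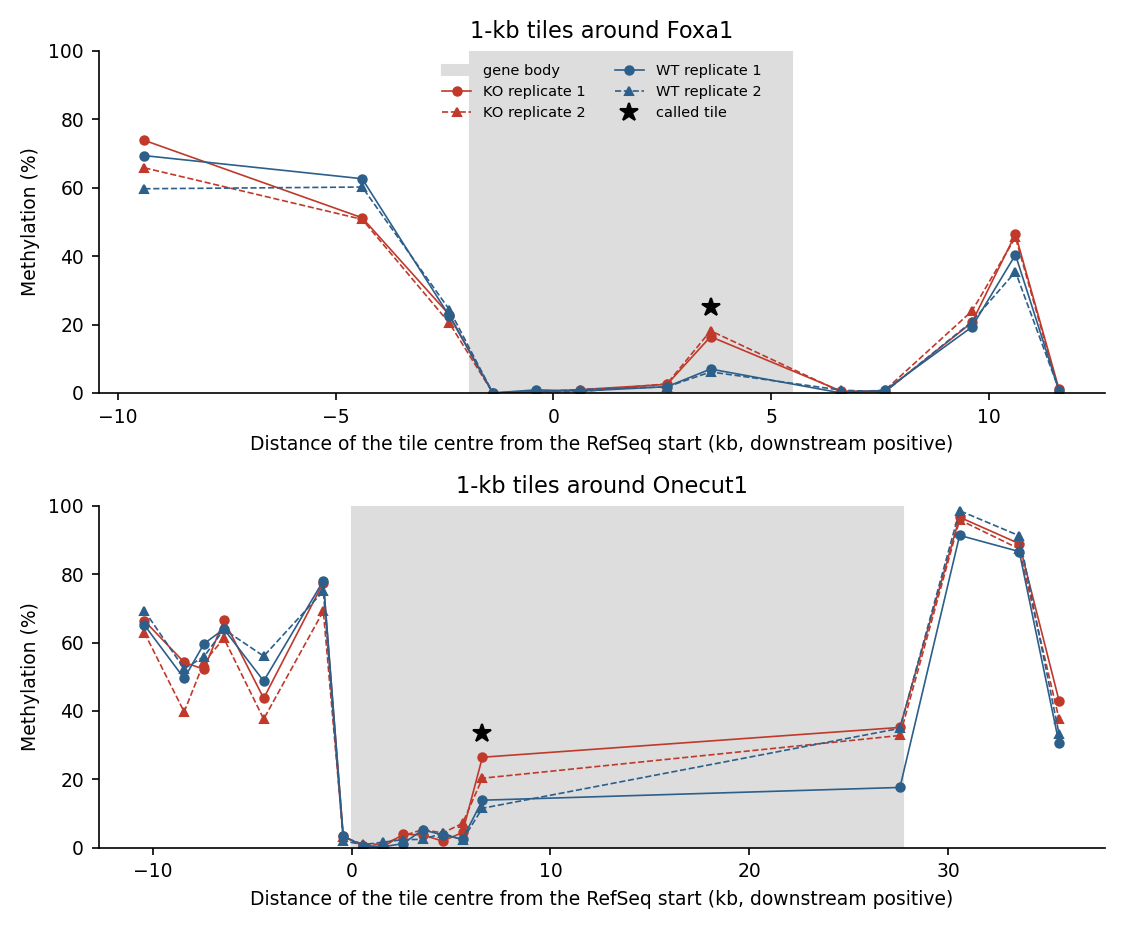
Methylation (%) of 1-kb tiles by distance from the RefSeq start (kb, downstream positive) around Foxa1 (top) and Onecut1 (bottom); red is KO, blue is WT, circles and solid lines are replicate 1, triangles and dashed lines replicate 2, grey is the gene body and stars mark called tiles. The called tiles lie 3.61 and 6.58 kb downstream of the start, next to body tiles under 8% on the side of the start, and the last Onecut1 body tile is again higher, at 17.6% to 35.2%.

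Cebpb, which drives acute-phase genes and regeneration, had the largest tile difference. Its tile from 167686001, 2.41 kb upstream of the start and outside annotated genes, measured 43.8% and 50.7% in KO replicates 1 and 2 against 28.9% and 28.2% in WT, from 148 to 176 reads over 3 CpGs. The genotypes did not overlap and WT varied little, but the difference of 18.6 points between group means (18.3 on pooled reads) missed the threshold (moderated quasi-binomial model, adjusted p = 0.0711). It was called with CpGs of 5 reads admitted (adjusted p = 0.0481), and the tile shifted by 500 bases, from 167686501, was called at 18.3 points (adjusted p = 0.0206). The called CpG in it, 167686920, measured 75.4% and 85.7% in KO against 50% and 49.1% in WT (49 to 57 reads; adjusted p = 0.0156, moderated quasi-binomial model). That call was absent whichever single library was left out. The tile from 167687001 next to it had 26.1% and 21.9% in KO against 16.04% and 13.3% in WT (adjusted p = 0.736). In the Cebpb body 139 CpGs stayed at 0.762% and 0.540% in KO against 0.536% and 0.516% in WT. Among the 14 CpGs of 20% to 80% in the region, 13 had a higher mean in KO. They averaged 50.9% and 49.6% in KO against 41.1% and 38.0% in WT. Over the series 54.2% of such CpGs had a higher mean in KO. Fewer than that did so at Foxa1 (21 of 53), Onecut1 (22 of 64) and Prox1 (10 of 24). Neighbouring CpGs can share reads, so these counts are not of independent CpGs. Cebpb and Foxa2 lie on chromosome 2, as does Pnpla7, at 143 Mb and 123 Mb from it.

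Foxa3, a FOXA member abundant in adult liver, held the region with the lowest p, and its tile of smallest p lay in a neighbour. The tile from 19005001, in Irf2bp1, measured 36.2% and 34.2% in KO replicates 1 and 2 against 27.4% and 28.9% in WT, from 1590 to 2163 reads over 42 CpGs. Both KO libraries lay above both WT libraries, and adjusted p was 0.0027 (moderated quasi-binomial model). The difference of 7.11 points was under the 10 a call needs, and a minimum of 5 points would call it. The 117 CpGs in Irf2bp1 averaged 16.3% and 15.7% in KO against 12.8% and 13.5% in WT, and the 48 in Sympk 10.6% and 10.8% in KO against 10.3% and 9.79% in WT. In the Foxa3 body, at 37.1% and 35.5% in KO against 33.3% and 35.0% in WT, the most methylated of the FOXA bodies, both KO libraries also lay above both WT libraries, by 2.17 points with CpGs weighted equally. Of 61 CpGs of 20% to 80% in the region, 49 had a higher mean in KO, against 54.2% of such CpGs over the series. CpGs that share reads are not independent here either.

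Cebpa, the regulator of hepatocyte metabolic genes, had an unmethylated body at 0.416% and 0.481% in KO against 0.250% and 0.174% in WT over 110 CpGs. Its tile of smallest p, from 35130001, lay 11.2 kb downstream in the lncRNA genes Gm35724 and Gm51475. It measured 49.3% and 44.1% in KO against 34.8% and 34.0% in WT, from 135 to 262 reads over 7 CpGs. The genotypes did not overlap, and the difference of 12.3 points did not pass (adjusted p = 0.334, moderated quasi-binomial model). The 13 CpGs of Gm35724 averaged 32.3% and 28.3% in KO against 23.0% and 23.1% in WT.

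Foxa2, the FOXA member that also acts in bile acid homeostasis, was the least methylated region, and no tile stood out. Its tile of smallest p, from 148040001 in the lncRNA gene 9030622O22Rik, measured 1.94% and 1.07% in KO against 0.785% and 0.602% in WT (unadjusted p = 0.177). The body measured 2.56% and 3.01% in KO against 2.81% and 2.41% in WT, with the genotypes overlapping. Its largest tile difference among tiles under 20% was 2.39 points.

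Onecut2, the paralog of Onecut1, had its smallest p in the tile from 64345001 of the gene body, at 4.65% and 6.27% in KO against 2.44% and 3.85% in WT over 39 CpGs and 1598 to 2295 reads per library. Both KO libraries lay above both WT libraries by 2.32 points on average (adjusted p = 0.118, moderated quasi-binomial model). The 95 CpGs outside the body varied more between libraries of one genotype, with 16.8% and 20.4% in KO against 17.4% and 14.6% in WT. The body measured 16.9% and 17.7% in KO against 16.2% and 16.98% in WT, and overlapped.

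Prox1, a homeodomain regulator of hepatoblasts, had the smallest difference of the 8 whole-region means, 0.0347 points. Its body measured 36.8% and 35.8% in KO against 36.3% and 36.6% in WT, and the CpGs of 20% to 80% measured 49.9% and 48.6% in KO against 48.7% and 49.95% in WT. Its tile of smallest p, from 190170001 at the gene start and in Prox1os, measured 0.241% and 0.0611% in KO against 0.557% and 0.469% in WT (unadjusted p = 0.0398, adjusted p = 0.75, moderated quasi-binomial model). This was a lower level in KO in a tile close to 0 in both genotypes. The single CpG of smallest p with at least 20 reads per library, 190156944, measured 82.9% and 90.0% in KO against 59.3% and 76.2% in WT (adjusted p = 0.731).

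The lowly methylated stretch around each gene was measured as the longest run of CpGs whose running mean over 5 CpGs was under 20%. On the mean of the 4 libraries it ran from 4.64 kb at Cebpb to 14.3 kb at Cebpa, against a median of 5.41 kb over 12802 protein-coding genes with at least 50 analysed CpGs. Cebpa (longer than 89.4% of these genes), Prox1 (13.2 kb, 87.3%), Onecut2 (10.8 kb, 81.5%) and Foxa2 (10.2 kb, 79.6%) had the longest. Distances between neighbouring analysed CpGs inside these stretches reached 6647 bases at Prox1, 5310 at Cebpa, 4944 at Foxa2 and 2640 at Onecut2, so the lengths span parts with no analysed CpG. At Foxa1 the stretch was 5.85 and 5.97 kb in KO replicates 1 and 2 and 11.97 and 6.25 kb in WT. It began inside the called tile in KO, at 57542592 and 57542476, and in WT replicate 2, at 57542142, and before it in WT replicate 1, at 57536471. The lengths rest on the same reads as the called tile and WT replicate 1 sets most of the gap (exact two-sided permutation p = 0.333). At Onecut1 the stretch ended inside the called tile in KO, at 74868709 and 74868744. In WT it ended inside the tile at 74868726 and just past it at 74869049. The genotypes overlapped in length there and at the other 6 genes.

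**Figure D5:**
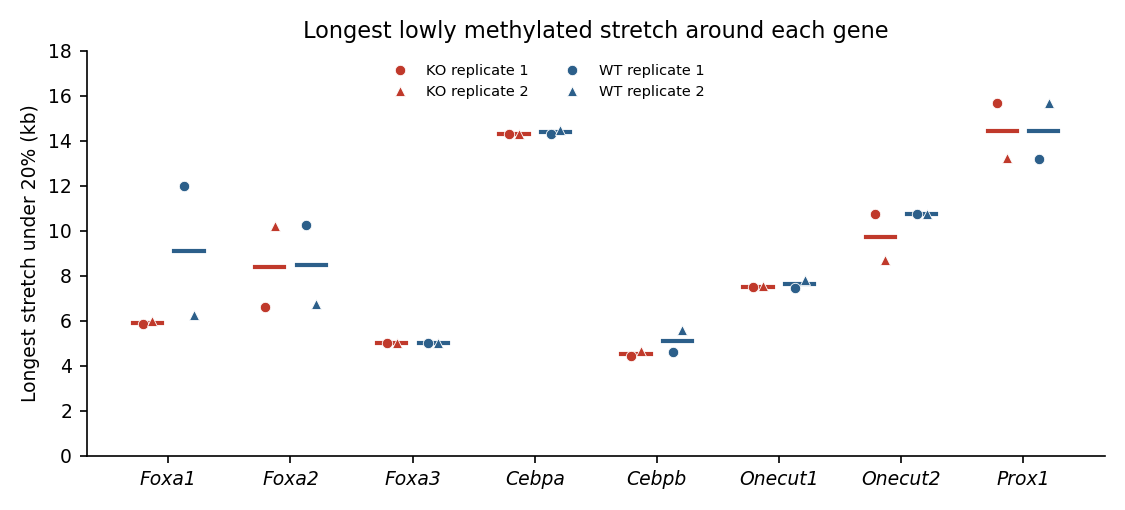
Length (kb) of the longest stretch of CpGs under 20% methylation around each gene, per library, KO (red) left of WT (blue); circles are replicate 1, triangles replicate 2 and bars the means. Cebpa and Prox1 have the longest stretches, and at Foxa1 both KO libraries, at 5.85 and 5.97 kb, lie below both WT libraries.

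Other regulators of the hepatocyte network, a list of 31 genes, had 4 of 535 tiles called (0.748%), all higher in KO, in Nr5a2, Ppara, Zbtb20 and Nfib. Over the series 0.149% of tiles were called, 177 of 244 higher in KO. The gene lists, like the members, were chosen with earlier results of these data known. Their shares of called tiles therefore describe them and do not test an excess over the series. The list's median tile difference was 0.152 points, against 0.175 over all tiles, and 0 of its 26 measured gene-end windows were called. Nfib, a nuclear factor I gene, measured 58.8% and 56.4% in KO replicates 1 and 2 against 35.4% and 35.98% in WT in its called tile. Zbtb20, a zinc finger repressor, measured 77.7% and 74.3% in KO against 58.0% and 56.3% in WT. Nr5a2, the nuclear receptor LRH-1, measured 44.4% and 50.2% in KO against 33.9% and 33.2% in WT. Of 16 genes that these factors control, such as Alb and Apob, 1 of 90 tiles was called (1.11%, against 0.149% over the series). That tile lay in Cyp7a1, which controls the rate of bile acid synthesis, and was the 1 tile tested at this gene. It measured 85.7% and 85.1% in KO against 63.6% and 75.9% in WT. The target list's median tile difference was 2.00 points. The genes closest to each member in region mean and share of CpGs under 20%, over 4 libraries and 8 values, were Gata2 for Foxa1 (mean distance 1.11 points among 740 candidates), Foxf1 for Foxa2 (0.617 among 1303), Hs3st3b1 for Foxa3 (1.39 among 519) and Prdx2 for Cebpa (0.355 among 1517). They were Mllt10 for Cebpb (0.684 among 1338), Tbx3 for Onecut1 (1.28 among 1481), Slc26a10 for Onecut2 (1.46 among 319) and Acvr1 for Prox1 (0.552 among 3664).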

How the data were processed

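Liver DNA was cut by TaqI and MspI and bisulfite converted in library preparation, per the labels' protocols. For each of the 4 libraries the authors deposited a track of methylation levels as fractions and a track of read depth (coverage), both signed by strand and on mm10, per the file headers. BWA 0.7.12 and MACS are named by the submitters' processing notes, with no role; further tools are not given in the sources. The product of level and depth, whole at 100% of positions (tolerance 1e-06), was taken as methylated reads. Strands of a CpG were summed.

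Methylated and unmethylated reads of CpGs, 1-kb tiles, gene-end windows and whole regions (tiles, windows and regions with at least 3 analysed CpGs) were tested with a moderated quasi-binomial model, in which dispersion was moderated as in limma 3.58.1 and set to 1 where lower; tests were two-sided F tests with Benjamini-Hochberg adjustment over the genome. Levels of a tile are pooled reads, those of regions and promoters means over CpGs, and differences between genotypes are differences of library means unless pooled reads are named. Features at 0% or 100% in all libraries were left untested, and whole regions needed no minimum difference. For tiles, windows and regions the model was also run on simulated reads, drawn with the dispersion it had fitted. That run does not check its p-values against the real spread between libraries. R 4.3.3, the data.table package 1.17.8, pandas 2.3.3, numpy 2.4.6 and matplotlib 3.10.9 were used.

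For 5 methylated of 10 reads, exact Clopper-Pearson 95% limits are 18.7% and 81.3%, while 0 of 10 (floor of 3 counts) allows a level of up to 30%; these cover counting error only. Gene positions and promoters came from RefSeq on GRCm38.p6. The members and the gene lists were chosen with earlier results of these data known. Named tiles and CpGs are those called, the neighbours of called tiles, and for each member the tile and the CpG (at 20 or more reads in each library) of smallest p; others are marked in the text. Alternatives covered read minimums of 5 and 20, a prior drawn from informative features only, limma, the minimum difference, tile position, flank size, read weighting, a replicate block, and leaving out libraries in turn. Strand-wise reads and the removal of 1 CpG were added after seeing the data.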

Additional observations from a re-analysis of the deposited data

How the results depend on the processing

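The 2 called tiles became 4 with a minimum of 5 reads (1 lower in KO; 372 of 256051 tiles over the series), 1 with a minimum of 20 reads (168 of 65679) and 0 with limma, which called 0 tiles over the whole series, and ranged from 1 to 2 when a library was left out. Without KO replicate 1 or WT replicate 2 the 1 tile was that of Foxa1, and without KO replicate 2 the 2 were those of Onecut1 and of Cebpb from 167692001. The 3 called CpGs became 0 with a prior from informative features (98 over the series, against 509), 0 with limma (192 over the series) and 0 with the replicate block (0 over the series), and ranged from 0 to 1 when a library was left out, the 1 being that of Foxa1. The Foxa1 tile, 10.7 points on pooled reads, was no longer called with limma (10.7 points, adjusted p = 0.894) and stood at 9.93 to 11.6 points when a library was left out, 8.96 points on reverse-strand reads and 9.83 points without its most different CpG. The Onecut1 tile, 10.7 points, was no longer called with a minimum of 20 reads (9.74 points, adjusted p = 0.0122) or limma (10.7 points), and stood at 7.81 to 13.9 points when a library was left out, 7.66 points on forward-strand reads and 8.33 points without its most different CpG. The called tiles and the tile of smallest p of each member kept their sign under the alternatives run for them; the neighbours of called tiles were not run.

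The members with a higher region mean in KO numbered 7 of 8, and 5 to 8 under the alternatives. Among the 7, Foxa2 (0.176 points) and Prox1 (0.0347 points) overlapped between genotypes. The share of all regions with a higher mean in KO was not counted, and their median difference on pooled reads was 0.0738 points. Of 80 alternative region differences, 13 moved by more than 1 SD. Gene-end windows and whole regions gave 0 calls under every alternative run. Windows other than that of Foxa1 were too low to be called lower in KO. Deviations of same-numbered libraries correlated at -0.0102 over 45320 tiles of 20% to 80%, so no shared deviation was seen there. This cannot show whether the replicate numbers pair the libraries by animal or preparation. With the replicate block both tiles stayed called (adjusted p = 0.000378 for Foxa1 and 0.0216 for Onecut1), with 2 called tiles and 0 called CpGs, where a model with the block leaves 1 residual degree of freedom. With 2 libraries a genotype no exact test reaches 0.05, and at 10 reads single CpGs cannot resolve differences of 10 points.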
